A study of Danio rerio with 14 samples.

Results

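The genes described here are 93 broadly expressed genes whose mRNA was higher in the cranial muscle of *psmb1* mutant zebrafish while changing little in *sox10*+ cells of the same kind of mutant. They were chosen by their expression in 14 RNA-Seq libraries made from cells sorted out of dissected heads at 72 hours post fertilization (hpf). The groups were *mylz2*+ cells (muscle) of *psmb1* mutants (M, n = 3), *mylz2*+ cells of wild-type and heterozygous larvae pooled together (WH, n = 4), *sox10*+ cells (neural crest and chondrocytes) of *psmb1* mutants (n = 3) and *sox10*+ cells of WH larvae (n = 4). Each library came from the heads of 20 to 25 larvae, with 1500 *mylz2*+ cells or 7000 *sox10*+ cells sorted. The mutation is a retroviral insertion in the first intron of *psmb1*. The control libraries hold a mixture of +/+ and +/- larvae, and the *sox10:kaede* reporter also labels cells outside the cranial neural crest, such as the ear.

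*psmb1* encodes a subunit of the catalytic core of the proteasome, the protease that breaks down proteins tagged with ubiquitin. When proteasome activity drops, cells are known to raise the transcription of proteasome subunit genes, and proteins that are not removed can set off chaperone, oxidative stress and growth arrest responses. Muscle fibres depend on steady protein turnover because their contractile proteins are made in bulk, and ribosome production, membrane traffic and lysosomes all take part in that turnover. Genes of these pathways are used by nearly every cell, so their levels can be measured in muscle and in *sox10*+ cells alike.

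Members were found on counts per 1000000 counts of the library (CPM). Of 32520 genes, 9967 were kept because a group mean reached 5 CPM and because the WH means of both cell types, after adding 1 CPM, lay within 4-fold of each other. For each kept gene the log2 ratio of the M to the WH mean was taken with 1 CPM added, and the median over kept genes, 0.39 in muscle and 0.23 in *sox10*+ cells, was subtracted. A member needed a centred change of at least 1 in muscle, a centred change between -0.3 and 0.3 in *sox10*+ cells, and every M muscle library above every WH muscle library. In all, 713 kept genes (7.15%) reached a change of 1 in muscle, 101 of these were also within the *sox10*+ limits, and 8 were lost because the muscle libraries overlapped. The upper limit of 150 genes was not reached. All of these criteria used the mutant comparison, so the members' changes in either cell type are descriptions without a test.

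**Figure D1:**
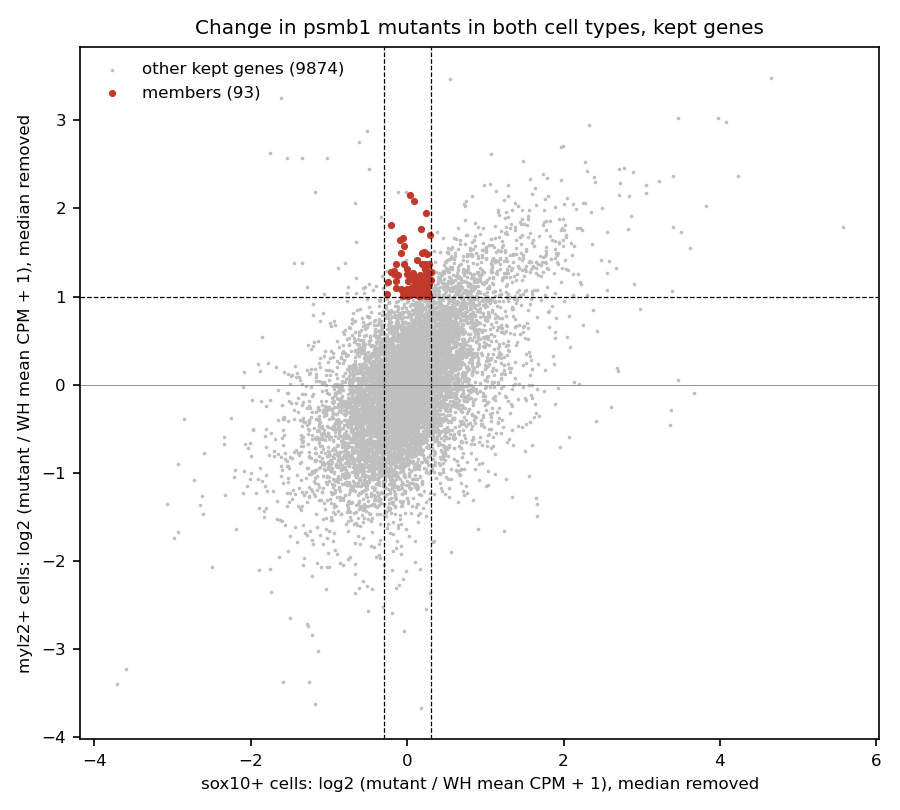
Change in *psmb1* mutants in *sox10*+ cells (x axis) and in *mylz2*+ cells (y axis) for 9967 kept genes, each as a log2 ratio of mean CPM + 1, M over WH, with the median over kept genes removed. Red points are the 93 members, and dashed lines mark the limits of 1 in muscle and -0.3 to 0.3 in *sox10*+ cells; unmarked genes inside the limits had overlapping muscle libraries.

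The libraries held between 54824619 and 103563447 counts. In muscle the groups were apart in depth, with 83947537 to 103563447 counts in M and 69357630 to 78521766 in WH libraries. The factors by which edgeR scales totals (TMM) were apart too, at 1.051 to 1.275 in M and 0.805 to 0.926 in WH muscle. In *sox10*+ cells both ranges overlapped. The rule used CPM on totals without these factors. A floor of 3 counts per gene came to 0.029 to 0.0547 CPM. This floor covers counting error only, since amplified reads are not independent molecules. The targeted gene, *psmb1* (PSMB1 in the names used, ENSDARG00000009640), averaged 92.1 ± 8.55 CPM in M muscle and 126 ± 9.82 CPM in WH muscle (SD), and it fell there (log2 fold change -0.85 ± 0.14 SE, edgeR adjusted p = 0.00161). In *sox10*+ cells the gene averaged 86.8 ± 12.2 CPM in mutants and 77.0 ± 16.2 CPM in WH, with libraries that overlapped (log2 fold change 0.04 ± 0.20, edgeR adjusted p = 0.956). Fast muscle genes, 26 markers summed, held 9.42 to 13.4% of the counts of the M muscle libraries and 15.4 to 16.6% of those of the WH muscle libraries (exact two-sided permutation p = 0.0571, the smallest that 3 against 4 libraries can give), and at most 0.211% of the counts of any *sox10*+ library. Cartilage markers, 15 genes summed, held 6.98 to 9.88% of the counts in M *sox10*+ libraries and 11.4 to 16.2% in WH *sox10*+ libraries, and at most 0.0793% in any muscle library. CPM are shares, so the lower share of fast muscle genes moves with the higher shares of all members, and its part in them was not tested. In sorted bulk cells, fewer cells of a type and less RNA per cell cannot be told apart.

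Across the 93 members the mean level was a median of 24.9 CPM in M muscle, 6.87 CPM in WH muscle, 22.6 CPM in M *sox10*+ cells and 16.7 CPM in WH *sox10*+ cells. Members therefore stood at a median of 3.3-fold in mutant over WH muscle and 1.32-fold in mutant over WH *sox10*+ cells, where all kept genes had medians of 1.36-fold and 1.19-fold. The centred changes ran from 1.00 to 2.15 in muscle (median 1.17) and from -0.26 to 0.30 in *sox10*+ cells (median 0.12). A centred value near 0 in *sox10*+ cells is thus not an unchanged CPM, and 70 members lay above 0 and 23 below it. Most members sat close to the lower limit, with 12 members at 1.5 or more and 30 under 1.1.

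In 92 of the 93 members the lowest M muscle library was at least 1.5 times the highest WH muscle library, against 16.5% of all kept genes, and in 70 it was at least 2 times that library, against 7.0%. The rule used these same muscle values, requiring both a change and groups that do not overlap, which 41.8% of all kept genes met, so nothing is read from these gaps. The median coefficient of variation between replicates was 14.2% in M muscle and 22.6% in WH muscle, against 17.8% and 18.6% over all kept genes. In *sox10*+ cells the M libraries stood above every WH library for 14 members, a share of the members below the 21.5% of kept genes for which this was so, and no member had all M libraries below all WH libraries. The median over the members was 26.6, 27.8 and 23.3 CPM in M muscle replicates 1, 3 and 4, against 7.42, 5.97, 7.92 and 7.21 CPM in WH muscle replicates 1 to 4. The rule fixed in advance that these medians were higher in every M muscle library, so nothing is read from their order. Replicate 3 was the highest M muscle library for 60 members, replicate 4 for 19 and replicate 1 for 14.

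edgeR's quasi-likelihood test, fitted on all 20413 genes tested in muscle, called 90 of the 93 members higher in mutants at an adjusted p under 0.05, against 10.7% of all genes. In *sox10*+ cells the same test called 0 of the 92 members tested, against 3.71% of all genes in either direction. There 1 member had an unadjusted p under 0.05 (16.5% of all genes), and DESeq2 called 0 (11.3% of all genes). The difference between the cell types, tested as an interaction over 23232 genes, was called for 9 members, against 0.456% of all genes that were more positive in muscle. In that direction 68 members had an unadjusted p under 0.05 (6.68% of all genes), and DESeq2 called 33 (2.43% of all genes). Because the rule selected on both comparisons, nothing is read from these counts. The fitted log2 fold changes of edgeR, which scales libraries by TMM, had a median over members of 1.33 in muscle and 0.26 in *sox10*+ cells, where all genes tested had medians of 0.01 and -0.02.

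**Figure D2:**
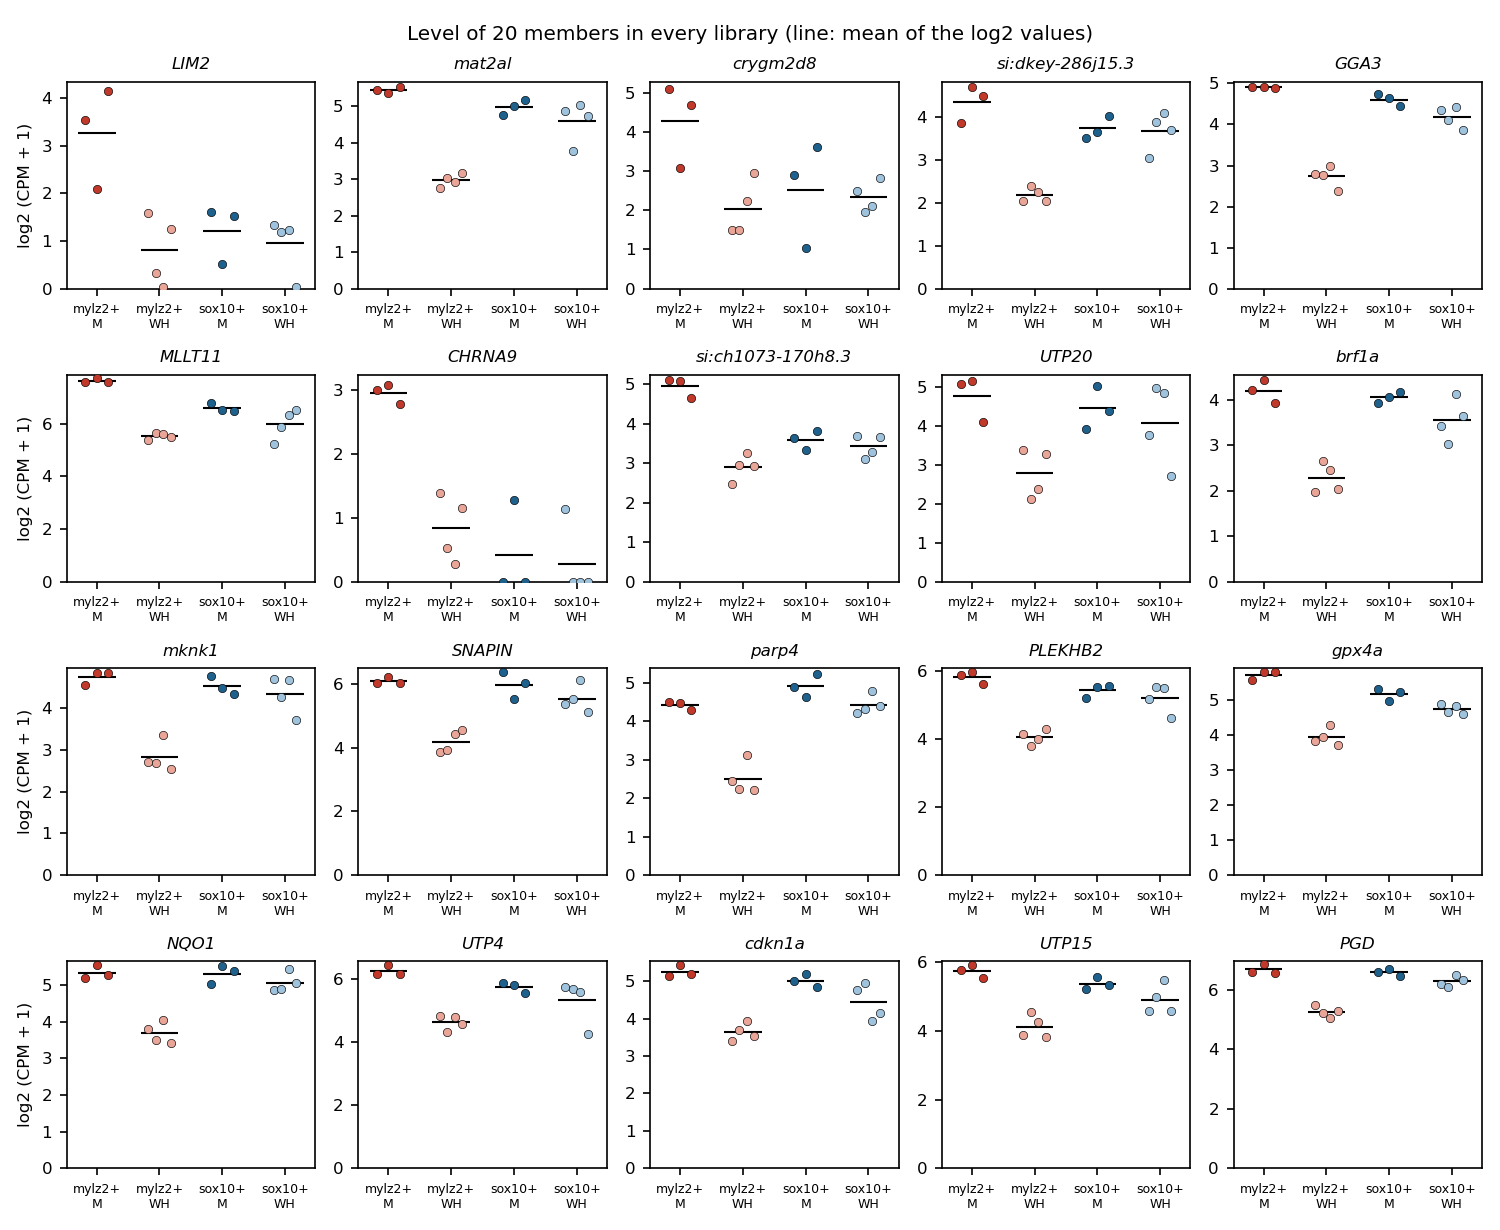
Level of 20 members in every library as log2(CPM + 1): the 15 named members with the largest change in muscle, and those in the pathway lists described here. Points are libraries in the order *mylz2*+ M, *mylz2*+ WH, *sox10*+ M and *sox10*+ WH and lines are means. Every M muscle library lies above every WH muscle library in each panel, as the rule required. The widest spread among M muscle libraries is in *LIM2* and *crygm2d8*.

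Ribosome assembly, tRNA and translation formed one of the larger roles among the members, with 18 genes. Roles were assigned from the symbols after the members were known, mostly from knowledge of yeast and mammalian proteins, and symbols in capitals are human-style names that may stand for more than one zebrafish gene. Roles were not assigned to the other kept genes, so whether any role is more frequent among the members was not tested. The centred changes of these 18 genes ran from 1.01 to 1.57 and their folds in muscle from 2.78 to 4.4, with a median fold of 3.16 in muscle and 1.23 in *sox10*+ cells. The 6 genes *UTP20* (1.57), *UTP4* (1.23), *UTP15* (1.21), *DHX37* (1.17), *RRP12* (1.11) and *WDR3* (1.05), given with their centred changes, belong to the machinery that folds and cleaves the precursor of the small ribosomal subunit.

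*UTP20*, a large scaffold protein of that assembly, had 32.6, 34.9 and 16.2 CPM in M muscle, against 9.4, 3.4, 4.18 and 8.66 CPM in WH muscle. In *sox10*+ cells it had 14.3, 31.8 and 20 CPM in mutants, against 12.7, 30.4, 28 and 5.57 CPM in WH. The muscle groups were apart, as the rule required, with the lowest M value in replicate 4, and the *sox10*+ groups overlapped throughout. *UTP4* averaged 75.4 ± 8.99 CPM in M muscle and 23.9 ± 3.9 CPM in WH muscle (SD, n = 3 and 4). *UTP15* had 53.7, 59.7 and 45.3 CPM in M muscle, against 13.7, 22.3, 18 and 13.1 CPM in WH muscle. Both proteins work in the same early complex that binds the newly made precursor RNA, and in both genes each M muscle library was at least 2 times the highest WH muscle library. *RRP12*, which helps export both ribosomal subunits from the nucleus in yeast, was the most abundant of the group, with 228, 249 and 198 CPM in M muscle, against 78.6, 56.9, 99.2 and 81.3 CPM in WH muscle. It was also 1 of only 5 members with a higher level in WH muscle than in WH *sox10*+ cells, by 0.04 on the log2 scale.

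Later steps of protein synthesis were represented as well. *brf1a* encodes a factor that brings RNA polymerase III to tRNA genes, and it had 17.5, 20.5 and 14.2 CPM in M muscle, against 2.95, 5.31, 4.45 and 3.12 CPM in WH muscle. *mknk1*, a kinase that phosphorylates the cap-binding initiation factor, had 22.4, 27.8 and 27.6 CPM in M muscle, against 5.54, 5.41, 9.31 and 4.87 CPM in WH muscle. In *sox10*+ cells it had 26.1, 21.3 and 19.2 CPM in mutants and 24.8, 18.2, 24.4 and 12.1 CPM in WH, so that the WH muscle libraries were the low ones among all 14. Other members modify or finish tRNAs, namely *NSUN2*, a tRNA methyltransferase, *THUMPD1*, a cofactor of tRNA acetylation, and *TRNT1*, which adds the CCA end, with centred muscle changes of 1.28, 1.11 and 1.02. *AFG2B* and *EFL1*, which act on the maturing large subunit, changed by 1.24 and 1.01. *DHX37*, an RNA helicase, had 1 WH muscle library at 0.148 CPM beside 3.59 to 4.75 CPM in the others. *EIF3H*, a subunit of an initiation factor, carries a symbol that a second gene identifier also has.

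The wider families of these genes can be compared with the members, without a test, from symbols chosen after the members were known. Of the UTP proteins 8 were kept, with a median change of 0.58 in muscle and 0.03 in *sox10*+ cells, and 8 of 8 lay above 0 in muscle. The 5 that were not members had a median of 0.45. The 6 RRP proteins had a median of 0.61 in muscle and 0.05 in *sox10*+ cells. The 14 EIF3 subunits had a median of 0.25, nearer to the median of all kept genes, which is 0 by construction.

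A list of 39 genes of ribosome biogenesis and translation factors, which holds *UTP4* and *UTP15*, gives the pathway beyond the members. In muscle 14 of 38 genes tested rose, against 10.7% of all genes, and 0 fell, against 11.6%, with 24 at an unadjusted p under 0.05, a median log2 fold change of 0.42 and 0.01 over all genes (edgeR). Without the members, 12 of 36 rose. In *sox10*+ cells 0 of 39 were called by edgeR, where 2.1% of all genes were called higher and 1.61% lower, with 5 at an unadjusted p under 0.05, 3 called higher by DESeq2 and a median of 0.10. The interaction called 1 gene of 39 as more positive in muscle, with 10 at an unadjusted p under 0.05. That gene was *npm1a*, which encodes the nucleolar chaperone nucleophosmin, with a log2 fold change of 0.86 ± 0.13 in muscle (edgeR adjusted p = 0.00103), -0.51 ± 0.14 in *sox10*+ cells (adjusted p = 0.0831) and a difference of 1.37 ± 0.20 (adjusted p = 0.0049). The rise of the list in muscle depended on the scaling in size, since with library totals 31 of 38 genes passed and the median over all genes moved to 0.41.

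**Figure D3:**
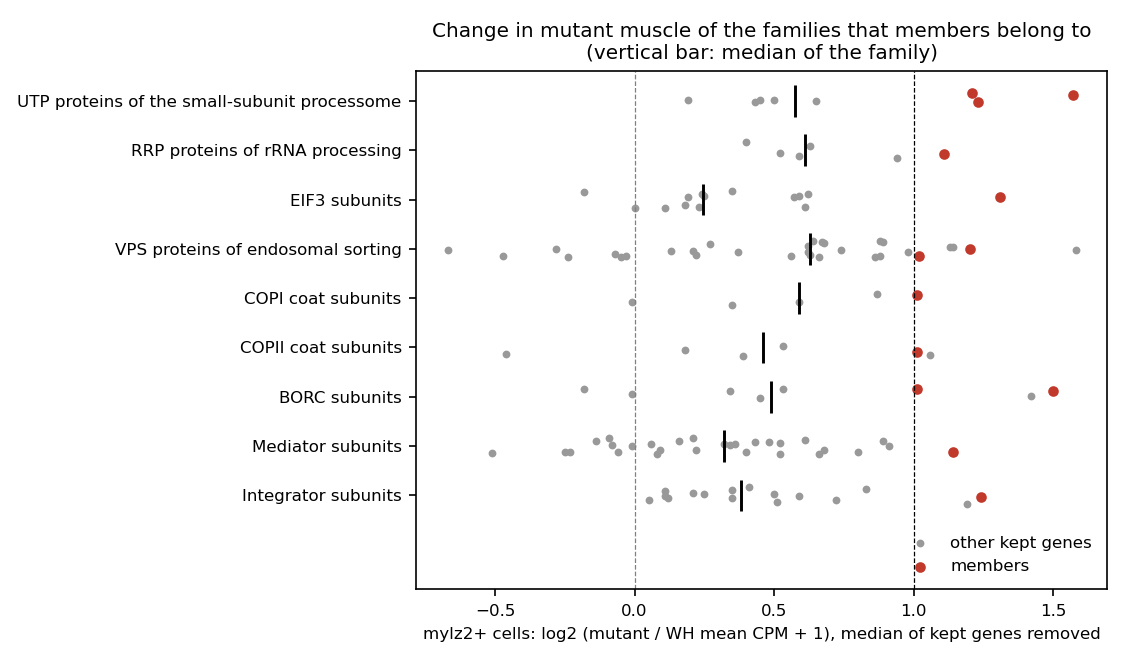
Centred log2 change in *mylz2*+ cells of every kept gene in the families to which members belong; red points are members, grey points other kept genes and vertical bars family medians. All 8 UTP proteins lie right of 0, and medians run from 0.25 for the EIF3 subunits upward, with every member at 1 or more, as the rule required, and with some non-members there as well, such as *VPS33B* (1.58) and *BLOC1S1* (1.42).

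Vesicle traffic, the Golgi, endosomes and lysosomes gave the largest role by number, with 20 members, and the share of such genes among all kept genes was not counted. Their centred changes ran from 1.01 to 1.76, with a median fold of 3.22 in muscle and 1.37 in *sox10*+ cells. Every *sox10*+ M library also stood above every *sox10*+ WH library for *GGA3*, *HGS*, *STARD3*, *PCSK7*, *SLC9A8*, *VPS11*, *SEC24A* and *COPB1*. These were most of the 14 members for which this was so. They made up a share of this role above the 21.5% of all kept genes with such a separation. Whether the role differs from other genes in this was not tested. For the other members of this role the *sox10*+ groups overlapped. *GGA3*, an adaptor that sorts cargo with clathrin between the Golgi and endosomes, had 29.1, 29.3 and 28.5 CPM in M muscle, against 5.92, 5.82, 6.98 and 4.24 CPM in WH muscle. In *sox10*+ cells it had 25.6, 24.0 and 20.7 CPM in mutants, against 19.4, 16.3, 20.4 and 13.6 CPM in WH. The M muscle libraries were nearly equal to each other, and the lowest was 4.08 times the highest WH muscle library, although *GGA3* shares its symbol with another identifier.

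Endosomal sorting of ubiquitinated membrane proteins was represented by 2 partners. *HGS*, which binds ubiquitinated cargo on endosomes, had 148, 165 and 122 CPM in M muscle, against 50.9, 30.8, 45.5 and 41.5 CPM in WH muscle. *STAMBP*, which removes ubiquitin from that cargo, had 28.8, 33.5 and 28.6 CPM in M muscle, against 10.1, 5.05, 9.57 and 12.2 CPM in WH muscle. That the muscle groups of both genes did not overlap was required by the rule. In *sox10*+ cells *HGS* averaged 138 ± 20.8 CPM in mutants and 96.3 ± 22.0 CPM in WH. Its lowest M library there (122 CPM) stood above its highest WH library (119 CPM). *STAMBP* averaged 43.8 ± 6.07 CPM in mutants and 36.1 ± 11.2 CPM in WH *sox10*+ cells, with groups that overlapped.

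*SNAPIN* and *BORCS8* both encode subunits of BORC, the complex that couples lysosomes to motors for transport along microtubules. *SNAPIN* had 65.1, 73.9 and 64.9 CPM in M muscle, against 13.6, 14.1, 20.5 and 22.4 CPM in WH muscle. *BORCS8* had 15, 17.6 and 16.2 CPM in M muscle, against 4.62, 5.62, 5.6 and 6.34 CPM in WH muscle. The complex did not share the change evenly: of 8 kept subunits, these 2 members included, 3 reached a change of 1 and 6 lay above 0. Values ran from -0.18 (*BORCS7*) to 1.5 (*SNAPIN*), and the 6 subunits that were not members had a median of 0.4. *BLOC1S1* changed by 1.42 in muscle but also by 0.71 in *sox10*+ cells, which kept it out.

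*PLEKHB2*, a protein of recycling endosomes, had 57.7, 61.7 and 47.8 CPM in M muscle, against 16.6, 12.7, 15 and 18.4 CPM in WH muscle. *CLCN7*, the chloride-proton exchanger of lysosomes, had 30.4, 32.2 and 28.6 CPM in M muscle, against 7.42, 7.96, 11.1 and 11.4 CPM in WH muscle. *COPB1* and *SEC24A*, coat subunits for the return and outward traffic between the endoplasmic reticulum (ER) and the Golgi, were the most abundant of this role. *COPB1* averaged 276 ± 53.6 CPM in M muscle and 104 ± 12.4 CPM in WH muscle, and 416 ± 22.5 CPM in M *sox10*+ cells and 316 ± 48.6 CPM in WH *sox10*+ cells. *SEC24A* averaged 171 ± 4.22 CPM in M muscle and 64 ± 9 CPM in WH muscle, and its fold in muscle was 2.67. It averaged 222 ± 15.9 CPM in M *sox10*+ cells and 161 ± 3.17 CPM in WH *sox10*+ cells. Further members serve sorting at late endosomes and the Golgi (*VPS11*, *VPS51*, *PI4K2A*), retrieval of ER proteins (*ERP44*), turnover of the ER by autophagy (*TEX264*), cleavage of precursor proteins (*PCSK7*) and cholesterol transfer (*STARD3*), with centred changes between 1.02 and 1.28.

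The VPS proteins, which act in sorting to endosomes and lysosomes, were spread more widely than the UTP proteins. Their 31 kept genes had a median change of 0.63 in muscle and 0.31 in *sox10*+ cells, with values from -0.67 (*vps37d*) to 1.58 (*VPS33B*), and *VPS33B* changed by 1.62 in *sox10*+ cells as well. A list of 42 autophagy and lysosome genes held no member. In muscle 20 of 41 tested rose and 2 fell, with a median log2 fold change of 0.45, and in *sox10*+ cells 4 of 42 rose with a median of 0.24 (edgeR). The interaction called 0 of these genes more positive in muscle, with 5 at an unadjusted p under 0.05 and 0 by DESeq2, so a difference between the cell types was not shown for the list.

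Redox and metabolic enzymes made up 10 members, with folds in muscle from 2.70 to 6.24. *mat2al*, named for its likeness to the enzyme that makes the methyl donor S-adenosylmethionine, had the largest change of them. It had 42.4, 40.6 and 45.6 CPM in M muscle, against 5.73, 7.15, 6.60 and 8.00 CPM in WH muscle, and 26.2, 31.5 and 34.8 CPM in M *sox10*+ cells, against 28.5, 12.6, 31.8 and 25.8 CPM in WH *sox10*+ cells. The M muscle libraries were the 3 highest of all 14, more than 5 times the highest WH muscle library. Reads may be shared with the closely related gene it is named for, so its level is uncertain.

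The members *gpx4a*, *NQO1* and *PGD* are also in the oxidative stress list. *gpx4a*, a glutathione peroxidase that repairs oxidized membrane lipids, had 46.5, 55.2 and 54.9 CPM in M muscle, against 13.3, 14.5, 18.6 and 12.2 CPM in WH muscle. Its *sox10*+ groups did not overlap either, with 38.5, 30.6 and 36.9 CPM in mutants, against 28.6, 24.5, 27.6 and 23.3 CPM in WH. *NQO1*, a quinone reductase and a standard target of the antioxidant regulator Nrf2, had 35.4, 45.5 and 37.4 CPM in M muscle, against 12.8, 10.3, 15.6 and 9.68 CPM in WH muscle. In *sox10*+ cells *NQO1* had 31.7, 44.9 and 40.7 CPM in mutants, against 28.1, 28.5, 42 and 32.2 CPM in WH, with groups that overlapped and a level near that of mutant muscle. *PGD*, which makes NADPH in the pentose phosphate pathway, had 96.3, 115 and 93.9 CPM in M muscle, against 43.8, 36.4, 31.9 and 38.2 CPM in WH muscle.

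The oxidative stress list also held genes that were higher in both cell types. In muscle 17 of 32 genes tested rose and 1 fell (median log2 fold change 0.82), and in *sox10*+ cells 7 of 32 rose and 0 fell (median 0.57, edgeR). The *sox10*+ count was 2 without M replicate 1, 4 without M replicate 3 and 3 without M replicate 4. Without the members 14 of 29 rose in muscle. *HMOX1*, haem oxygenase, rose in both, by 3.11 ± 0.74 in muscle (adjusted p = 0.0131) and 2.32 ± 0.35 in *sox10*+ cells (adjusted p = 0.00637). *GSR*, glutathione reductase, rose by 1.89 ± 0.16 in muscle (adjusted p = 5.38e-05) and 1.67 ± 0.31 in *sox10*+ cells (adjusted p = 0.0172), a call lost without *sox10*+ M replicate 1 or 4 (adjusted p of 0.0218 to 0.0907 with 1 library left out). The interaction called 1 gene more positive in muscle, *gstp1.2*, a glutathione transferase, with 2.11 ± 0.21 in muscle and 0.28 ± 0.22 in *sox10*+ cells (difference 1.82 ± 0.36, adjusted p = 0.027), and 1 more negative, *SOD2*, the mitochondrial superoxide dismutase, with -0.31 ± 0.14 in muscle and 1.18 ± 0.28 in *sox10*+ cells (difference -1.50 ± 0.34, adjusted p = 0.0486). With 1 library left out the call for *gstp1.2* held in 7 of 14 cases (adjusted p of 0.0162 to 0.0741), being lost without any 1 of the M libraries or WH muscle replicate 2. That for *SOD2* held in 2 of 14 (adjusted p of 0.0107 to 0.115), without WH muscle replicate 3 or WH *sox10*+ replicate 4.

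Other enzymes among the members were *ACLY*, which makes cytosolic acetyl-CoA, with 203, 195 and 171 CPM in M muscle, against 65.4, 52.2, 59.2 and 77.8 CPM in WH muscle. The *sox10*+ groups of *ACLY* did not overlap either, with 292, 277 and 293 CPM in mutants, against 220, 245, 262 and 182 CPM in WH. *LTA4H*, which makes leukotriene B4, had 73.6, 84.2 and 65.8 CPM in M muscle, against 26.5, 26.5, 31.7 and 25.9 CPM in WH muscle. It averaged 19.7 ± 2.98 CPM in M *sox10*+ cells and 16.6 ± 7.87 CPM in WH *sox10*+ cells, which made it the member with the highest muscle to *sox10*+ ratio in WH larvae (0.71 on the log2 scale). *SGPL1*, which degrades sphingosine phosphate, and *RDH11*, a retinal reductase, had centred changes of 1.15 and 1.01.

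*cdkn1a*, which encodes the cyclin-dependent kinase inhibitor p21 and is a standard target of p53, had 34.0, 42.2 and 35.7 CPM in M muscle, against 9.62, 12, 14.2 and 10.7 CPM in WH muscle. In *sox10*+ cells it had 31.0, 35.6 and 27.5 CPM in mutants, against 26.4, 30.2, 14.3 and 16.8 CPM in WH. The muscle groups were apart, as the rule required, and the *sox10*+ groups overlapped by the lowest M and the highest WH library. Its centred *sox10*+ change of 0.27 was close to the limit of 0.3. In the list of p53 targets 11 of 27 genes tested rose in muscle and 3 fell, and 10 of 26 rose without *cdkn1a* (edgeR). In *sox10*+ cells 4 of 28 rose and 0 fell, with 2 rising without M replicate 1 or without M replicate 3, and the medians were 0.55 in muscle and 0.34 in *sox10*+ cells. *CCNG1*, cyclin G1, and *rps27l* rose in both cell types, the cyclin by 1.23 ± 0.15 in muscle (adjusted p = 0.000384) and 0.76 ± 0.14 in *sox10*+ cells (adjusted p = 0.0154), where the call was lost without any 1 of the M libraries (adjusted p of up to 0.081). The interaction called 0 genes of this list by edgeR in that direction, with 5 at an unadjusted p under 0.05 and 1 called by DESeq2.

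Transcription and chromatin held 8 members, with folds from 2.69 to 3.70. *MED24*, a subunit of Mediator, which links transcription factors to RNA polymerase II, had 71.5, 75.5 and 58.4 CPM in M muscle, against 22.1, 23.4, 25.2 and 21.8 CPM in WH muscle. *ints6*, a subunit of Integrator, which ends transcription of short RNAs, had 36.6, 38.9 and 42.9 CPM in M muscle, against 18.3, 8.71, 13.8 and 7.57 CPM in WH muscle. The 29 kept Mediator subunits had a median change of 0.32 and the 16 kept Integrator subunits 0.38. The rule required a change of at least 1, so the place of *MED24* and *ints6* above these medians was fixed by it. *MACROH2A1*, a histone variant, and *SPEN*, a large corepressor, had centred changes of 1.32 and 1.02, and *SPEN* shares its symbol with another identifier. *egr4*, an immediate early transcription factor, had 48.3, 63.0 and 54.7 CPM in M muscle, against 26.6, 14.3, 22.2 and 17.9 CPM in WH muscle. The list of immediate early genes, which did not name *egr4*, had 6 genes of 36 higher and 10 lower in muscle, with a median of -0.26 (edgeR).

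Smaller roles were 5 immune genes (*malt3*, *havcr1*, *tap2t*, *il10rb* and *nlrc11*), 3 genes of the cytoskeleton and cell junctions (*amotl2b*, *LIMK1* and *tuba5*) and 2 ubiquitin ligases (*rnf145b* and *rbck1*). *il10rb*, a receptor chain shared by several cytokines, was the most abundant of the immune genes, with 80.6, 78.9 and 82.1 CPM in M muscle, against 31.9, 22.6, 37.0 and 26.8 CPM in WH muscle. The 12 leukocyte markers summed to 13.3, 47.6 and 32.6 CPM in M muscle, against 4.94, 12.7, 5.36 and 6.33 CPM in WH muscle, and their part in the immune genes was not tested. *tuba5*, an alpha-tubulin, was the most abundant member of all, with 756, 897 and 841 CPM in M muscle, against 305, 260, 375 and 301 CPM in WH muscle. *tuba5*, *nlrc11* and *trim35-28* belong to families of near-identical genes, so reads may have been split between copies.

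*rnf145b*, a ubiquitin ligase of the ER membrane, had 45.3, 51.3 and 31.1 CPM in M muscle, against 12.8, 12.5, 12.1 and 18.8 CPM in WH muscle. *rbck1*, part of the complex that builds linear ubiquitin chains, was low, with 4.06, 3.83 and 6.41 CPM in M muscle, against 0.993, 0.0433, 2.34 and 1.14 CPM in WH muscle. No gene of the proteasome lists was a member, and most of these genes rose in each cell type. Of the core subunits 15 of 19 tested rose in muscle and 15 of 19 in *sox10*+ cells (edgeR), and the kept ones had median centred changes of 1.49 and 1.83. The regulatory particle, activators and assembly factors rose for 33 of 36 genes in muscle and 30 of 36 in *sox10*+ cells. Heat shock and cytosolic chaperone genes, with 27 of 39 higher in muscle and 15 of 38 in *sox10*+ cells, also held no member. In all, 297 kept genes had a centred change of at least 1 in both cell types with muscle libraries that did not overlap, against the 93 members.

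**Figure D4:**
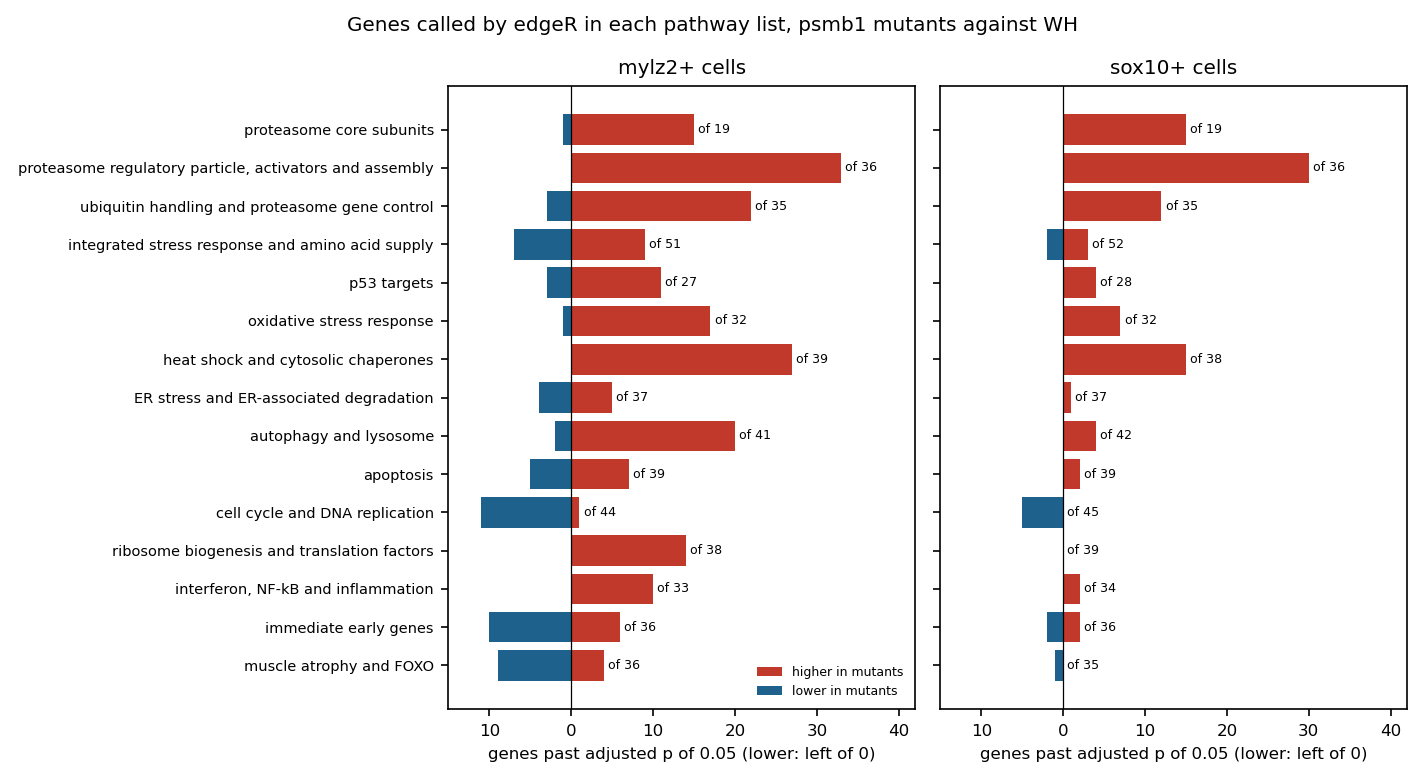
Number of genes in each pathway list that passed an adjusted p of 0.05 (edgeR), higher in mutants to the right of 0 and lower to the left, in *mylz2*+ cells (left panel) and *sox10*+ cells (right panel); the number tested stands beside each bar. Proteasome lists were higher in both panels, and ribosome biogenesis and translation factors had 14 of 38 genes higher in muscle and 0 of 39 in *sox10*+ cells, a contrast for which the test of the difference called 1 gene.

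The member with the largest centred change, *LIM2* (2.15), and the third, *crygm2d8* (1.94), are known as lens genes, one for a membrane protein and the other for a crystallin of lens fibre cells. *LIM2* had 10.7, 3.27 and 16.7 CPM in M muscle, against 2.02, 0.26, 0.027 and 1.37 CPM in WH muscle. *crygm2d8* had 33.0, 7.51 and 24.7 CPM in M muscle, against 1.80, 1.82, 3.70 and 6.72 CPM in WH muscle. Both were lowest in M replicate 3, unlike most members, and their M libraries spread most. Other lens genes moved with them: 47 crystallin and lens membrane genes, listed after these values were seen, summed to 1232, 482.5 and 964.6 CPM in M muscle, against 107.2, 79.99, 103.7 and 234.0 CPM in WH muscle. In *sox10*+ cells the same genes summed to 97.5 to 189 CPM in mutants and 137 to 194 CPM in WH. edgeR called 12 of 43 of them higher in muscle, against 10.7% of all genes, and 0 lower, against 11.6%. In *sox10*+ cells it called 0 of 37 higher and 0 lower, with a median log2 fold change of -0.52. The list was drawn up after the muscle values were seen, so nothing is read from the muscle count. The part of lens material in the level of the members was not tested. *crygm2d8* and *LIM2* have near copies in the genome annotation, and their counts are uncertain.

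Several members with large changes have no role assigned here. *MLLT11* had 189, 212 and 189 CPM in M muscle, against 40.5, 49.1, 48.5 and 43.9 CPM in WH muscle, and 95.9 ± 11.4 CPM in M *sox10*+ cells, against 66.5 ± 24.6 CPM in WH *sox10*+ cells. The lowest M library was 3.84 times the highest WH muscle library. *parp4*, an ADP-ribosyltransferase found in vault particles, had 21.5, 21.2 and 18.7 CPM in M muscle, against 4.42, 3.73, 7.72 and 3.63 CPM in WH muscle. *CHRNA9*, an acetylcholine receptor subunit best known from hair cells, had 7.02, 7.49 and 5.91 CPM in M muscle, against 1.62, 0.447, 0.216 and 1.23 CPM in WH muscle. It was at 0 in 5 of 7 *sox10*+ libraries and stood at 1.43 CPM in 1 mutant and 1.2 CPM in 1 WH library, so the description as broadly expressed does not hold for it, and it was the member not tested in *sox10*+ cells. In total 4 members, *CHRNA9* among them, reached 5 CPM in the M muscle group alone and so were kept only through the group in which they were high. The members *si:dkey-286j15.3* and *si:ch1073-170h8.3*, known by clone names, had centred changes of 1.82 and 1.64, and 4 members carry no symbol.

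The levels can also be set side by side between the cell types, as a description of values the rule used: a large muscle change with a small *sox10*+ change fixes how far the ratio of the cell types differs between mutants and WH larvae, and favours genes with low WH muscle levels. In mutants the median log2 ratio of muscle over *sox10*+ cells was 0.07 for the members and -0.60 over all kept genes, and 83 of 93 members lay within 2-fold of their *sox10*+ level, as did 62.8% of all kept genes. In WH larvae the median ratio was -1.2 for the members and -0.86 over all kept genes, and 30 of 93 members lay within 2-fold, as did 49.6% of all kept genes. Of the members 88 of 93 were lower in WH muscle than in WH *sox10*+ cells, as were 78.9% of all kept genes. The 10 members that were 2-fold or more apart in mutants were all higher in muscle, among them *CHRNA9* (2.40), *LIM2* (2.19), *LTA4H* (1.87) and *havcr1* (1.57). The 136 kept genes that met the mirrored rule (a centred muscle change of -1 or lower) had the opposite displacement in both, with median ratios of -0.90 in mutants and 0.22 in WH larvae, so nothing is read from the members' ratios. The ratios are between CPM of 2 cell types that were sorted and counted separately.

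**Figure D5:**
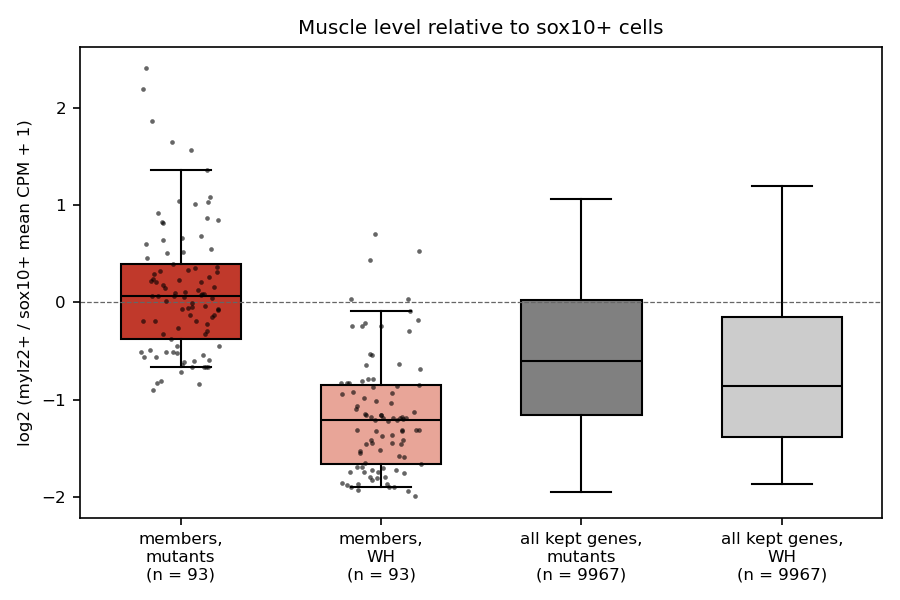
log2 ratio of mean CPM + 1 in *mylz2*+ cells over *sox10*+ cells, in mutants and in WH larvae, for the 93 members and for all 9967 kept genes. Boxes span the quartiles with the median, whiskers the 5th to 95th percentiles, and points are members; the members' median is 0.07 in mutants and -1.2 in WH larvae.

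How far the choice of members rests on single libraries was seen by applying the rule without each of the 7 muscle libraries and reading the chosen genes in the library left out. The rule then chose 89 to 113 genes. A left-out M library was above every WH muscle library for 95.5 to 98.9% of these, against 48.0 to 62.2% of all kept genes, and a left-out WH library was below every M muscle library for at least 96.0%, against 55.2 to 62.8%. The median centred change with the left-out library was 1.02 to 1.16 for M libraries and 0.99 (replicate 3) to 1.13 for WH libraries. Between 54.0 and 69.7% of the genes reached a change of 1 in a left-out M library, against 6.71 to 8.03% of all kept genes, and between 52 of 104 (replicate 3) and 64 of 98 (replicate 1) did so in a left-out WH library, against 7.23 to 8.89%. The other muscle group, the remaining libraries of the same group and the *sox10*+ libraries were shared between choosing and reading. The genes were also chosen for a large change, so a share above that of all kept genes was to be expected. Nothing is therefore read from these shares. Membership itself depended on single libraries. With 1 of the 14 libraries left out at a time, 67 to 89 of the 93 genes still passed. Only 17 passed in every case, among them *mat2al*, *GGA3*, *mknk1*, *PLEKHB2*, *gpx4a*, *NQO1*, *UTP4* and *ACLY*.

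The genes at the limits show how narrow they were. Just inside the limit of 1 in muscle were *ST7* (1.004), *EFL1* (1.006) and *SNX18* (1.007), and just outside *pdcd11* (0.998), *ARRB2* (0.987) and *rnf25* (0.985). Just inside the *sox10*+ limit were *STARD3*, *CLCN7* and *MLLT11* (0.29 to 0.3), and just outside *PDE12*, *PUS1* and *TWF1* (0.303 to 0.304). For the separation of the muscle libraries, *crygm2d8* was the nearest inside, with a lowest M library of 7.51 CPM and a highest WH library of 6.72 CPM, and *HYKK* the nearest outside, with 6.11 CPM and 6.18 CPM. *pdcd11*, another protein of small-subunit assembly, and *PUS1*, a tRNA pseudouridine synthase, thus missed by a few thousandths.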

How the data were processed

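Cells were sorted from dissected heads, and libraries were made with the SMART-Seq HT and Nextera XT kits. The authors aligned reads with STAR to GRCz11 (per the submitters' processing notes, which also name DESeq2), and deposited whole-number counts per Ensembl gene, 1 table per cell type, not normalized and with strand and counting tool not given in the sources used here. The third *mylz2*+ mutant column is numbered 2 in the deposited table while its title says replicate 3, and replicate 3 is used. Gene symbols came from a names table that matched 29201 of 32520 identifiers. The members, roles, families and lists were chosen with earlier results of these data known.

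edgeR 4.0.16 (filterByExpr, TMM, quasi-likelihood F test, Benjamini-Hochberg adjustment over all genes tested; R 4.3.3) was fitted per cell type, and over all 14 libraries for the interaction. Single sums were tested by exact two-sided permutation (scipy 1.17.1). The alternatives were DESeq2 1.42.0, RLE factors or library totals in place of TMM, no filter, the replicate number as a block, and each library omitted in turn. Leaving out 2 libraries together was added after seeing the data. The text names *psmb1*, the 15 members with a symbol and the largest change, members in lists and genes at the limits. Other members, named by role, were chosen after their values were seen. Per the study's methods, groups were compared within clutches of siblings, but no label ties a replicate number to a clutch or day. The p-values measure the spread between these libraries. Promoter motifs were not analysed here because no sequence was used. Some members counted in the totals are not reported here by name.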

Additional observations from a re-analysis of the deposited data

Results flagged for a closer look

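Some libraries or genes stood apart by a fixed measure, the gap of the highest or lowest of 4 WH libraries to its neighbour as a share of the group's range, where chance passes about 1 group in 20 and 0.829 is the limit. Of 68 groups of values examined, 9 passed. Of the member genes, *mknk1* in WH muscle (0.85) had 1 library at 9.31 CPM beside 4.87 to 5.54 CPM. In WH *sox10*+ cells *LIM2* (0.84) had 1 library at 0.0172 CPM beside 1.29 to 1.53 CPM, *UTP4* (0.845) 1 at 18.1 CPM beside 47.0 to 52.2 CPM, and *CHRNA9* (1.0) 1 at 1.2 CPM beside 3 at 0. *psmb1* in WH *sox10*+ cells (0.854) had 1 library at 53 CPM beside 83 to 88.1 CPM. Among marker sums, fast muscle genes in WH *sox10*+ cells (0.909) were at 2110 CPM in 1 library beside 323 to 486 CPM, neuron genes there (0.957) at 2125 CPM beside 1517 to 1543 CPM, and fibroblast and tendon genes there (0.955) at 5744 CPM beside 7844 to 7943 CPM. Epidermis genes in WH muscle (0.909) were at 2610 CPM in 1 library beside 4640 to 4843 CPM.

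In the lists of ribosome biogenesis, oxidative stress and p53 targets, 3 genes differed between the cell types in their mutant effect by edgeR's interaction test. They were *gstp1.2* (difference 1.82), *npm1a* (1.37) and *SOD2* (-1.5), with their tests as given above. Other lists held such genes too. Among them *UBA6* (1.46) and *PHGDH* (1.24) were more positive in muscle, and *psma6l* (-5.02) and *PSME1* (-4.45) more negative. Both *psma6l* and *PSME1* rose in each cell type. Their log2 fold changes were 2.89 ± 0.34 and 3.21 ± 0.24 in muscle, and 7.9 ± 1.06 and 7.64 ± 1.0 in *sox10*+ cells (SE). Their WH *sox10*+ means were low, at 0.0854 and 0.332 CPM, so the size of these differences is uncertain.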

How the results depend on the processing

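The number of genes passing the rule was 93 and became 211 with no median removed (36 of the 93 among them) and 161 with *sox10*+ changes up to 0.5. It was 87 with TMM-scaled CPM (78 of the 93), 113 with a pseudocount of 0.25 (83 of the 93), 139 with a group mean of 1 CPM (78 of the 93), 85 to 113 with 1 library left out, and 102 (77 of the 93) without M muscle replicate 3 and WH muscle replicate 2 together, the ends of the TMM factors. The median change of the members, 1.17, was 1.56 with no median removed, and 1.15 to 1.21 with 1 library left out. For muscle 4553 genes were called, and 3145 to 4333 with 1 library left out. With library totals 79.5% of the calls in muscle were higher in mutants, against 48.1% with TMM. The same scaling gave 71.9% against 56.7% in *sox10*+ cells, and for the interaction 68.6% against 35.2% more positive in muscle. For *sox10*+ cells 797 genes were called, 2443 by DESeq2, and 293 to 1018 with 1 library left out, where leaving out M replicate 1 (293), M replicate 3 (359), M replicate 4 (350) or WH replicate 2 (467) lowered the count by more than 1.5 times. For the interaction 301 were called, 1348 by DESeq2, and 102 (without M muscle replicate 3) to 443 (without WH *sox10*+ replicate 4), with 102 to 170 when any M library of either cell type was left out. Deviations from the group means were nearly uncorrelated between M and WH libraries of the same replicate number (correlations of -0.042 to 0.058). These were not compared with pairs of unlike number, so whether the numbers pair libraries was not settled. With a replicate block 3742 genes were called in muscle and 174 in *sox10*+ cells.

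For the lists in muscle, genes higher in mutants were 8 to 12 for p53 targets, 15 to 17 for oxidative stress and 11 to 15 for ribosome biogenesis with 1 library left out, and 31 of the last with library totals. In *sox10*+ cells p53 targets gave 4, 7 by DESeq2, 1 with the block and 2 (without M replicate 1 or 3) to 4 with 1 library left out; oxidative stress gave 7, 11 by DESeq2, 0 with the block and 2 (without M replicate 1) to 8; ribosome biogenesis gave 0, 3 by DESeq2, 1 with library totals and 0 to 1. The causes were not tested. The levels of low members, such as *rbck1* and *LIM2*, are less certain, since their WH libraries reach near the floor of 3 counts. In WH muscle *rbck1* ran from 0.0433 CPM (replicate 2) to 2.34 CPM (replicate 3). *LIM2* ran there from 0.027 CPM (replicate 3) to 2.02 CPM (replicate 1).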
